A study of Mus musculus with 6 samples.

Results

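Imprinted genes of the mouse outside the Prader-Willi cluster were followed in embryonic neocortex. The set was 39 genes named by symbol, and all 39 were found among the 23420 rows of the deposited count table. They were grouped by the parental allele that is usually expressed and by the imprinted cluster in which they lie. Gene expression was measured by RNA sequencing of total RNA at embryonic day 18.5. Libraries labelled Tshz3 mutant were compared with wild-type libraries, 3 of each, to ask which transcripts differ between the genotypes. Tshz3 encodes a teashirt family transcription factor with zinc fingers. Each library held the cortices of 3 to 4 embryos pooled from several litters. The sources used here do not give the allele, the altered part of Tshz3 or the mouse strain.

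Imprinted genes are transcribed mainly from one parental copy, which is set by DNA methylation laid down in the egg or the sperm. Most lie in clusters that share a control region, and many clusters pair protein-coding genes of one allele with a long non-coding RNA of the other. In brain and placenta they are known for roles in growth, metabolism and behaviour, and some are expressed from one allele in certain cell types only. The counts were not separated by allele, so each value is the sum of both alleles.

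Libraries were similar in depth, with 18569383 to 24147810 counts each. Levels are given as CPM, the count divided by the scaled total of its library, in the order of libraries 1, 2 and 3. Tshz3 itself was at 89.8, 93.1 and 99.2 CPM in the mutant-labelled libraries and at 78.7, 83.0 and 89.3 CPM in wild type (log2 fold change 0.17, SE 0.07, edgeR adjusted p = 0.669), so its count could not serve as a check of the genotype, and the term mutant-labelled is used throughout. Across all genes, libraries with the same number in their labels deviated together, so a fit with that number as a block, called the paired fit, is given beside the unpaired one. Of 14618 genes tested, 11 passed an adjusted p of 0.05 in the unpaired fit and 506 in the paired fit. All 9 neocortical markers had enough counts to be tested, and their summed level was 2380 to 2694 CPM.

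The 39 genes together took 0.777% to 0.876% of all counts in a library. Meg3, Rian, Gnas and Nnat held 70.3% of those counts. To compare levels between genes, CPM was divided by the annotated exon length in kilobases. By that measure the highest were Nnat at 892.5, Meg3 at 116.6, Gnas at 101.5, Nap1l4 at 81.4 and Peg13 at 56.7 CPM per kb. Rian at 50.9 and Cd81 at 47.8 CPM per kb came next, so the order of these last levels was close. At the other end, Rtl1, a retrotransposon-derived gene of the paternal allele, had 2, 4 and 2 counts in the mutant-labelled libraries and 2, 0 and 2 in wild type. Phlda2, a growth-restraining gene of the maternal allele, had 0, 0 and 1 counts against 2, 0 and 0. Both were too low to be tested, and no difference in them was detectable at this depth. Airn, Ddc and Nespas were tested but averaged below 1 CPM.

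**Figure D1:**
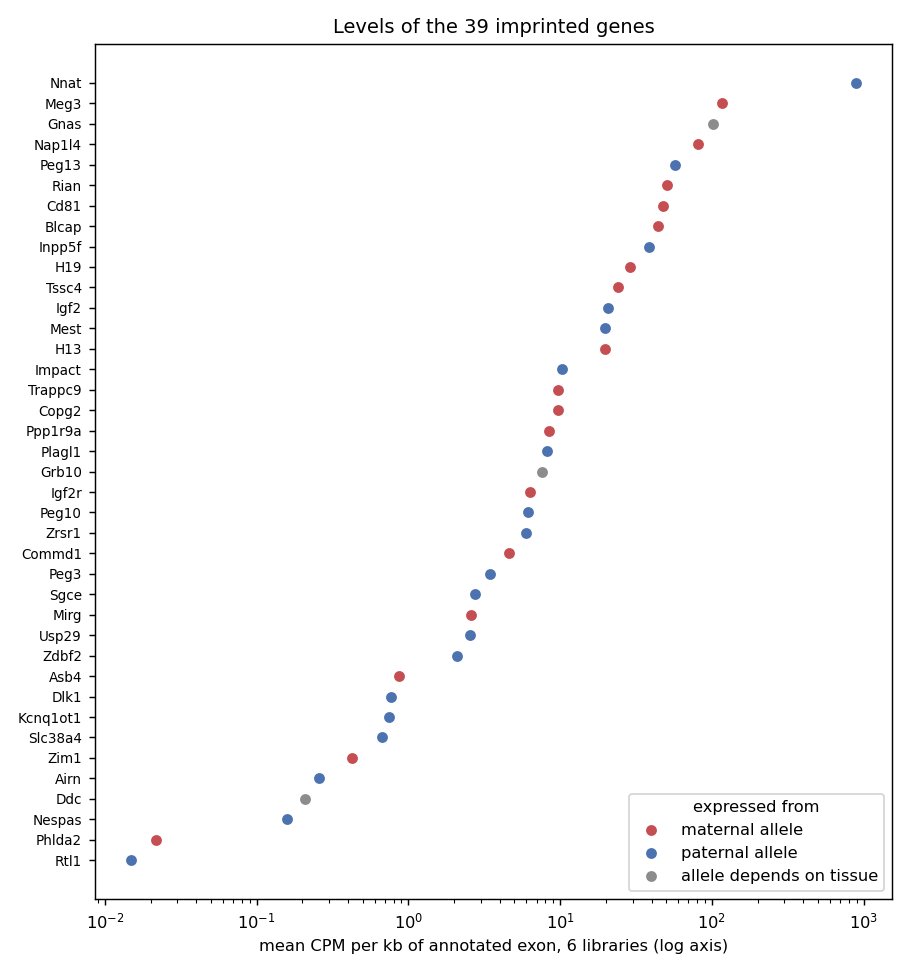
Mean level of each of the 39 imprinted genes over the 6 libraries, as CPM per kilobase of annotated exon on a log axis, coloured by the allele that is usually expressed. Nnat stands at the top at 892.5 and Rtl1 at the bottom.

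Of the 37 genes tested, 0 passed an adjusted p of 0.05 in the unpaired edgeR fit, where 0.0752% of all genes did (0.0479% higher and 0.0274% lower in the mutant-labelled libraries). DESeq2 called 0 of them as well, against 0.719% of the genes to which it gave an adjusted p. Mirg alone had an unadjusted p below 0.05, which is 2.7% of the 37, against 7.09% of all genes. In the paired fit 1 of 37 passed (2.7%), against 3.46% of all genes (1.97% higher, 1.49% lower), and that gene, H13, was higher in the mutant-labelled libraries. These shares were no greater than those over all genes. The fold changes were small. Their median was -0.06 against -0.01 over all genes on the log2 scale, the median size was 0.0771 against 0.0872, and 23 of 37 lay within 0.1 of 0. A p above the threshold does not show that a gene was the same in both genotypes. The 95% interval lay within 0.5 of 0 for 26 genes, and for the other 11 it reached past 0.5, so a difference of that size was not excluded in them. On leaving out both libraries of a number, chosen after seeing the data, the paired fit called 1 gene of the set without pair 1 (2.03% of all genes), 4 without pair 2 (12.8% of all genes) and 0 without pair 3 (0.421% of all genes). The unpaired fit of the same libraries called 0 of the set each time. Each of these fits had only 2 pairs left, so its p-values measure poorly how pools vary.

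The signs leaned downward. The log2 fold change was below 0 in 26 of 37 genes (70.3%, against 52.3% of all genes) and above 0 in 11. Within same-numbered pairs of libraries, 12 genes (32.4%) were lower in the mutant-labelled library in every pair, against 19.8% of all genes, and 4 were higher in every pair, against 19.3% of all genes. Of the 34 genes that averaged at least 1 CPM, Mirg and Tssc4 had groups that did not overlap (5.88%), against 13.7% of all genes at that level (7.67% with the mutant-labelled libraries above, 5.98% below). Neighbouring imprinted genes share control regions, so the 37 values are not independent of one another.

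**Figure D2:**
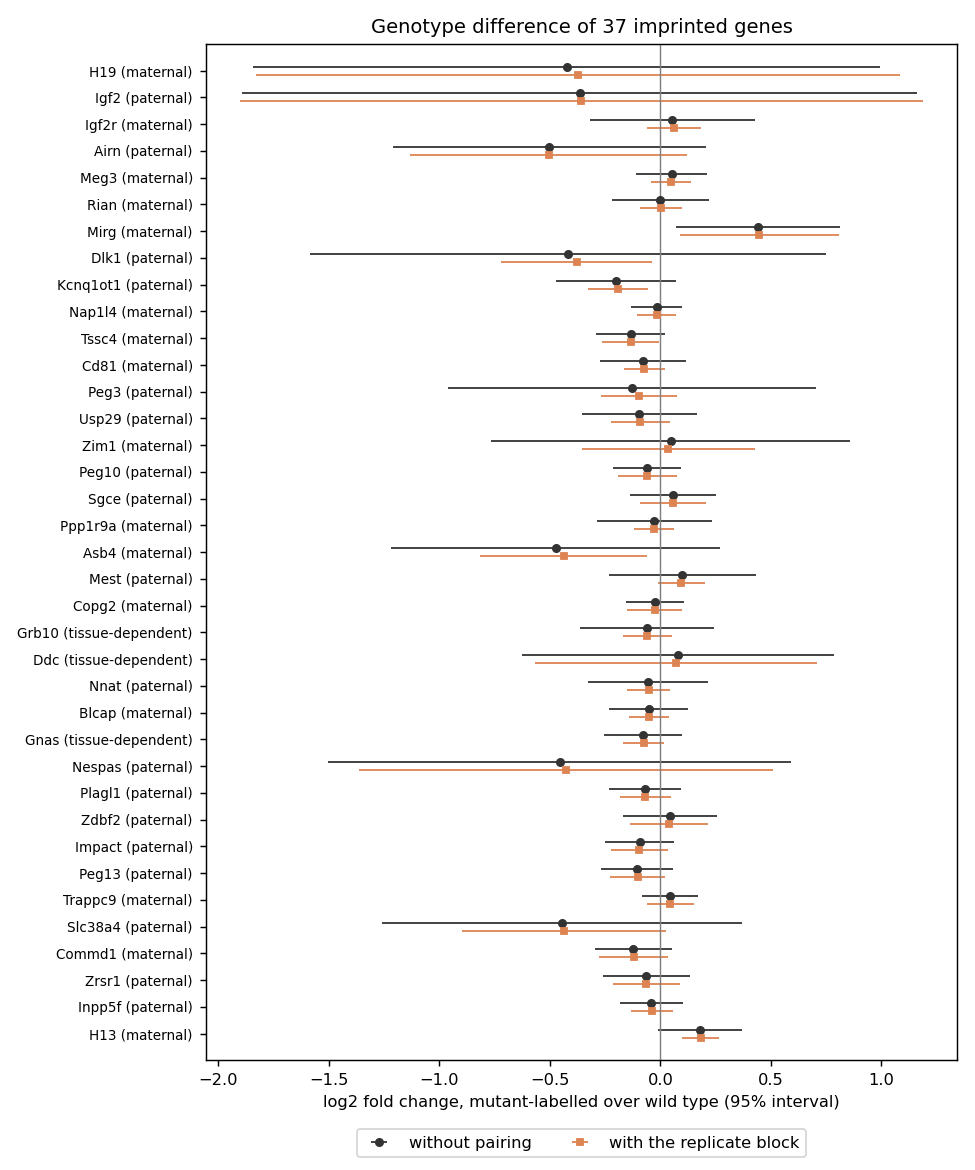
Log2 fold change of the 37 tested genes, mutant-labelled over wild type, with 95% intervals, from the unpaired fit (black circles) and the paired fit with the replicate block (orange squares). Most points lie close to 0. The intervals of H19, Igf2, Nespas, Airn and Ddc are wide in both fits, and those of Dlk1, Peg3, Zim1, Slc38a4 and Asb4 are wide in the unpaired fit.

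H13 encodes signal peptide peptidase, a protease of the endoplasmic reticulum membrane, and is expressed mainly from the maternal allele. It spans chr2:152669461-152708670 of GRCm38 on the plus strand. Its level was 181, 197 and 178 CPM in the mutant-labelled libraries and 157, 182 and 151 CPM in wild type. The groups overlapped, because wild-type library 2 exceeded mutant-labelled libraries 1 and 3, but in every pair the mutant-labelled library was higher. The unpaired log2 fold change was 0.18 (SE 0.08, 95% interval -0.01 to 0.37, adjusted p = 0.727). The paired value was 0.18 (SE 0.04, 95% interval 0.10 to 0.27, adjusted p = 0.0223). The call did not hold without pair 1 or without pair 3. Without pair 1 the paired adjusted p was 0.103, without pair 2 it was 3.74e-05 (0.227 unpaired) and without pair 3 it was 0.361. H13 is the only gene of the set that passed the paired fit, so the bases before its RefSeq start site are shown, from chr2:152669211-152669460 of GRCm38.p6 on the plus strand, 5′ to 3′, with CpG pairs, the sites at which DNA methylation is set, in capitals.
H13: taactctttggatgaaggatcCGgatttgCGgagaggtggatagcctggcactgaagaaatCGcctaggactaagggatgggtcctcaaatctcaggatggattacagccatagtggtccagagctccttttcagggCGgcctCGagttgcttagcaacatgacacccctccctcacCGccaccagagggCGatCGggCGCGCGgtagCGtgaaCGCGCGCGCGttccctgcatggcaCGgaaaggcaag
It holds 18 CpG pairs in 250 bases, against a median of 6 over all promoters of that length. Methylation was not measured, and the stretch is not given here as the region that controls imprinting of H13.

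**Figure D3:**
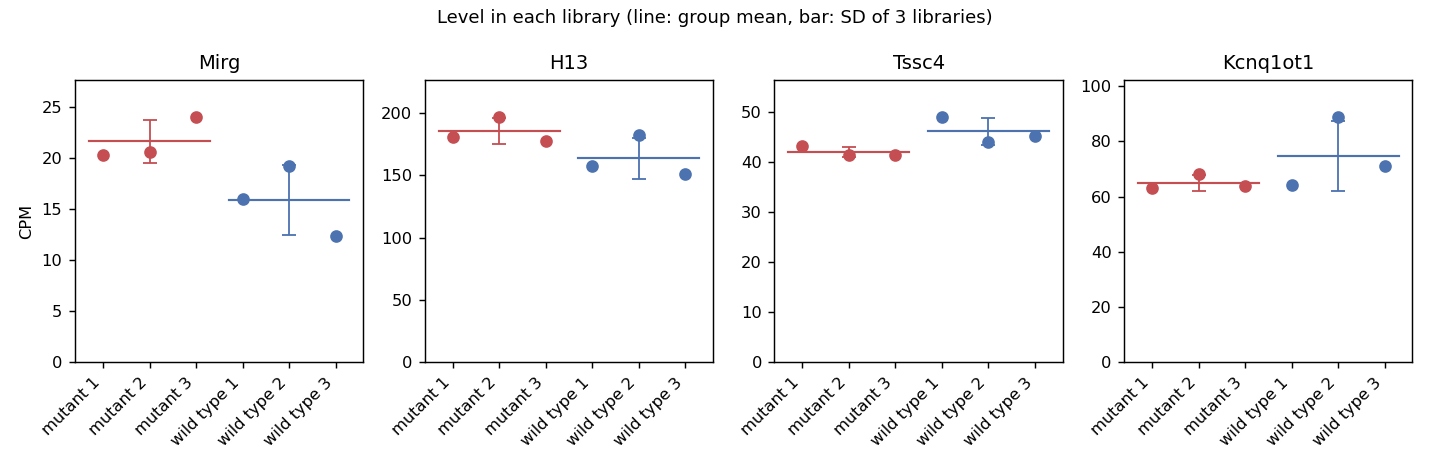
CPM of Mirg, H13, Tssc4 and Kcnq1ot1 in each library, with a line at each group mean and a bar for the SD of 3 libraries. The 3 mutant-labelled values lie above wild type for Mirg and below it for Tssc4, while the groups overlap for H13 and Kcnq1ot1.

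The Dlk1-Meg3 cluster on distal chromosome 12 pairs paternal protein-coding genes with a run of maternal non-coding RNAs. Mirg, the most distal of these RNAs and a host of many microRNAs, had the highest log2 fold change of the set. Its level was 20.3, 20.6 and 24.07 CPM in the mutant-labelled libraries and 16.0, 19.3 and 12.4 CPM in wild type. The groups did not overlap, although mutant-labelled library 1 and wild-type library 2 were near each other. The log2 fold change was 0.44 (SE 0.16, 95% interval 0.07 to 0.81, unadjusted p = 0.0254, adjusted p = 0.610), and the paired adjusted p was 0.188. The paired value was 0.50 without pair 1 (adjusted p = 0.448) and 0.22 without pair 3 (adjusted p = 0.606). Without pair 2 it was 0.63 (adjusted p = 4.24e-08, or 0.236 unpaired). The difference was thus smaller without the libraries numbered 3. Within pairs 1, 2 and 3 the log2 ratio of mutant-labelled to wild type was 0.34, 0.09 and 0.96. Pairs 1 and 3 thus differed widely, which the paired adjusted p of 4.24e-08 does not measure.

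RefSeq places 26 mature microRNAs from 14 microRNA genes inside Mirg, which spans chr12:109729764-109749460 on the plus strand. Libraries of this kind do not count mature microRNAs, and the 13 of these genes found in the table had 186 counts together, with 2 of them at 0. Such counts come from longer RNA over the hairpins. The microRNA genes inside Mirg with the most counts were Mir3072 and Mir377, and their products are shown with the seed, bases 2 to 8, in capitals, beside a pair that shares a seed.
miR-3072-5p: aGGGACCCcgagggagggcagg
miR-3072-3p: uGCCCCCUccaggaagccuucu
miR-377-5p: aGAGGUUGcccuuggugaauuc
miR-377-3p: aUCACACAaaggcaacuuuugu
miR-453: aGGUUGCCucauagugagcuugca
miR-496a-5p: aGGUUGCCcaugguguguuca
miR-453 and miR-496a-5p have the same seed, and the others of this group differ from each other in theirs. Mir3072 had 13, 12 and 16 counts in the mutant-labelled libraries and 20, 19 and 17 in wild type. Mir377 had 7, 11 and 7 counts against 3, 9 and 3. The hairpins of both share bases with Mirg exons, so their reads and those of Mirg cannot be separated here, and these counts were too few to test.

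The other maternal RNAs of that cluster gave values close to 0. Meg3, a long non-coding RNA with the most counts of the set, was at 1963, 2176 and 2299 CPM in the mutant-labelled libraries and 2016, 2040 and 2159 CPM in wild type (log2 fold change 0.05, SE 0.07, adjusted p = 0.949). Its groups overlapped, and the lowest and highest libraries were both mutant-labelled. Rian, which hosts small nucleolar RNAs, differed by 0.00 (SE 0.09, 95% interval -0.22 to 0.22). Dlk1, a paternally expressed membrane protein related to Notch ligands, was at 5.75, 2.46 and 3.02 CPM against 8.58, 3.24 and 3.10 CPM. It was highest in wild-type library 1 and then in mutant-labelled library 1, and the groups overlapped (log2 fold change -0.42, SE 0.49, adjusted p = 0.939; paired adjusted p = 0.226). Without wild-type library 1 the unpaired value was 0.23.

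Igf2, a paternally expressed growth factor, and H19, the maternally expressed non-coding RNA beside it on distal chromosome 7, differed more between libraries of one genotype than between the genotypes. Igf2 was at 182, 65.9 and 64.6 CPM in the mutant-labelled libraries and at 209.5, 139.8 and 52.8 CPM in wild type. H19 was at 97.8, 43.8 and 40.3 CPM against 126, 86.4 and 31.0 CPM. For both, the order from high to low was wild-type 1, mutant-labelled 1, wild-type 2, mutant-labelled 2, mutant-labelled 3 and wild-type 3, and the highest library was 3.97 times the lowest for Igf2 and 4.06 times for H19. The log2 fold change was -0.36 (SE 0.62, adjusted p = 0.961) for Igf2 and -0.42 (SE 0.58, adjusted p = 0.949) for H19. Without wild-type library 1 these became 0.10 and 0.03. The log2 ratio of H19 to Igf2 was -0.72 ± 0.16 in the mutant-labelled and -0.73 ± 0.04 in the wild-type libraries (SD, n = 3).

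The summed markers of meninges, the membranes over the cortex in which Igf2 is known to be abundant, took the same order of libraries. Lum, Foxc1, Slc6a13, Aldh1a2, Islr and Crabp2 did not take it on their own. The summed level of 13 meningeal markers was 290, 108 and 76.5 CPM in the mutant-labelled libraries and 361, 241 and 61.8 CPM in wild type. All 13 had a log2 fold change below 0, with a median of -0.51, and 0 of 13 were called in either fit. Per CPM of those markers, Igf2 ranged from 0.580 to 0.854 and H19 from 0.337 to 0.527. Both ratios were highest in the libraries numbered 3, where the marker sum was lowest. The same ratio ranged from 0.0110 to 0.0291 for Slc38a4 and from 0.0134 to 0.0502 for Dlk1. Markers of the choroid plexus, the epithelium that makes cerebrospinal fluid, were high in both libraries numbered 1, at 842.5 and 858 CPM summed over 11 genes, and at 131 to 240.4 CPM in the other 4. Ttr alone held 47177 of the 51068 counts of these markers. Of the rest, only Prlr was not highest in the libraries numbered 1. The sum of 14 endothelial and pericyte markers ranged less, from 226 to 292 CPM. It had the order of the meningeal sum except within the libraries numbered 3. The part of any of these tissues in the levels of Igf2 and H19 was not tested. In bulk tissue, fewer cells of a type and less RNA per cell cannot be told apart.

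**Figure D4:**
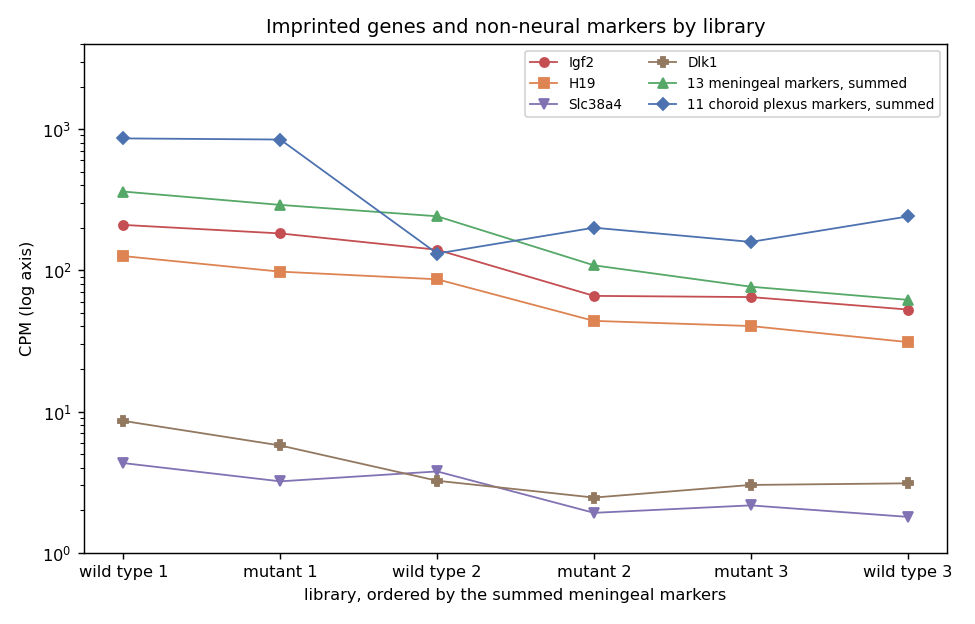
CPM on a log axis of Igf2, H19, Slc38a4 and Dlk1 and the summed CPM of 13 meningeal and 11 choroid plexus markers, with libraries ordered by the meningeal sum. Igf2 and H19 fall from left to right in the same order as the meningeal sum, and the choroid plexus sum is high in the 2 libraries numbered 1.

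Slc38a4, a paternally expressed amino acid transporter on chromosome 15, was at 3.20, 1.92 and 2.17 CPM in the mutant-labelled libraries and 4.31, 3.77 and 1.796 CPM in wild type. Its highest and lowest libraries were both wild type, and the log2 fold change was -0.45 (SE 0.35, adjusted p = 0.870). Igf2r, listed as maternally expressed, is the receptor that clears Igf2 protein from the cell surface. It differed by 0.05 (SE 0.16, adjusted p = 0.983). Airn, the paternal non-coding RNA that overlaps Igf2r on the other strand and can silence its paternal copy, was at 0.990, 0.709 and 0.604 CPM against 1.19, 1.26 and 0.817 CPM. Its log2 fold change of -0.50 (SE 0.31, 95% interval -1.21 to 0.21, adjusted p = 0.813) was the lowest of the set and rested on 116 counts in all.

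In the Kcnq1 cluster, also on distal chromosome 7, the 4 genes tested all had a log2 fold change below 0, and none passed in either fit. Tssc4, listed as maternally expressed, is known for a role in assembling a part of the spliceosome. It was at 43.3, 41.5 and 41.6 CPM in the mutant-labelled libraries and 49.2, 44.1 and 45.4 CPM in wild type. All 3 wild-type values lay above all 3 mutant-labelled ones, by a narrow margin. The log2 fold change was -0.13 (SE 0.07, 95% interval -0.29 to 0.02, adjusted p = 0.755; paired adjusted p = 0.261). Tssc4 shares 220 exon bases with Trpm5 on the opposite strand, so its count is uncertain. Kcnq1ot1, the paternal non-coding RNA that silences genes of the cluster, was at 63.0, 68.3 and 63.7 CPM against 64.2, 88.9 and 71.2 CPM. It was lower in the mutant-labelled library of every pair, and wild-type library 2 stood highest. Its log2 fold change was -0.20 (SE 0.12, adjusted p = 0.813; paired adjusted p = 0.121). Without wild-type library 2 the unpaired value was -0.06. The paired value was -0.27 without pair 1 (adjusted p = 0.0178, or 1.00 unpaired), -0.09 without pair 2 (adjusted p = 0.351) and -0.21 without pair 3 (adjusted p = 0.479). Nap1l4, a histone chaperone, was at 248, 245.7 and 257 CPM against 258, 248 and 254 CPM, with overlapping groups (log2 fold change -0.02, SE 0.05). Cd81, a tetraspanin of the cell surface, differed by -0.08 (SE 0.08).

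The Peg3 cluster on proximal chromosome 7 holds Peg3, a paternally expressed zinc finger gene, Usp29, a deubiquitinase gene that starts on the other strand close by, and Zim1, a maternally expressed zinc finger gene. Peg3 was at 33.4, 57.8 and 40.6 CPM in the mutant-labelled libraries and 35.1, 72.02 and 36.9 CPM in wild type. Both libraries numbered 2 were the highest, and the genotypes overlapped (log2 fold change -0.13, SE 0.34, adjusted p = 0.980). Zim1 was at 2.21, 4.71 and 3.53 CPM against 2.85, 4.83 and 2.45 CPM, again highest in the libraries numbered 2 (log2 fold change 0.05, SE 0.35). For Usp29 the value was -0.09 (SE 0.11), and this gene shares 2582 exon bases with Zim3 on the opposite strand. Because these genes differed with library number, the sequences before their starts are shown, 5′ to 3′ on the minus strand, with CpG pairs in capitals. The first lies between the starts of Peg3 and Usp29, at chr7:6730432-6730577 of GRCm38.p6, where the start sites are 147 bases apart, and the second precedes Zim1, at chr7:6696451-6696682.
Peg3: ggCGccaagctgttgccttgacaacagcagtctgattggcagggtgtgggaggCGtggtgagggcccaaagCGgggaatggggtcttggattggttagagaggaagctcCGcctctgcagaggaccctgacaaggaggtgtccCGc
Zim1: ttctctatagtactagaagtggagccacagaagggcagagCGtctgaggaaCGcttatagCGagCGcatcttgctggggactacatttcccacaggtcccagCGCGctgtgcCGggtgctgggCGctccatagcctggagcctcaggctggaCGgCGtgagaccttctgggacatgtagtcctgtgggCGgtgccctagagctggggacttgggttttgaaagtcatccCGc
They hold 5 CpG pairs in 146 bases and 12 in 232 bases. The motif TGCCGC, which the imprint-keeping protein ZFP57 binds when methylated, was searched on both strands of the 250 bases upstream of all RefSeq starts. It was in 6 of the 30 genes of the set that have such a sequence (20%) and in 9.84% of all genes. GCCATNTT, a YY1 motif, was in 1 of 30 (3.33%) and in 4.49% of all genes. Each motif was counted on its own, and a match is a run of letters, not a shown binding site. The 3 sequences printed hold neither.

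On proximal chromosome 6, Asb4, a maternally expressed part of a ubiquitin ligase, was at 3.53, 2.46 and 2.57 CPM in the mutant-labelled libraries and 5.88, 2.61 and 3.38 CPM in wild type. It was lower in the mutant-labelled library of every pair, while the groups overlapped. The log2 fold change was -0.47 (SE 0.32, 95% interval -1.22 to 0.27, adjusted p = 0.833; paired adjusted p = 0.208), and without wild-type library 1 it was -0.07. The paired value was -0.24 without pair 1 (adjusted p = 0.792), -0.59 without pair 2 (adjusted p = 0.0289, or 0.578 unpaired) and -0.45 without pair 3 (adjusted p = 0.557). The other genes there differed little. Peg10, a retrotransposon-derived gene, Sgce, a sarcoglycan, and Ppp1r9a, an actin-binding protein of synapses, had log2 fold changes of -0.06 (SE 0.07), 0.06 (SE 0.08) and -0.03 (SE 0.11). Mest, a paternally expressed hydrolase-like gene, differed by 0.10 (SE 0.14) and was higher in the mutant-labelled library of every pair. Copg2, a coat protein gene of the secretory pathway that shares 912 exon bases with Mest on the other strand, differed by -0.03 (SE 0.06).

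Nnat, a small membrane protein gene of neurons that lies inside an intron of Blcap, was at 1667, 1399 and 1737 CPM in the mutant-labelled libraries and 1865, 1434 and 1693 CPM in wild type. Both libraries numbered 2 were the lowest, and the log2 fold change was -0.06 (SE 0.12, adjusted p = 0.970). Blcap, maternally expressed in brain, differed by -0.05 (SE 0.08). Gnas, which encodes the stimulatory G protein alpha subunit, was at 1125, 1042 and 1148 CPM against 1241, 1051 and 1206 CPM, lower in the mutant-labelled library of every pair but with overlapping groups (log2 fold change -0.08, SE 0.08, adjusted p = 0.917). Nespas, its antisense RNA, shares 988 exon bases with it and had 61 counts in all (log2 fold change -0.46, SE 0.45).

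Peg13, a paternal non-coding RNA inside an intron of Trappc9, was at 250.5, 268 and 256 CPM in the mutant-labelled libraries and 288.5, 252 and 293 CPM in wild type. The groups overlapped through wild-type library 2, and the log2 fold change was -0.11 (SE 0.07, adjusted p = 0.833; paired adjusted p = 0.374). The paired value was -0.05 both without pair 1 (adjusted p = 0.827) and without pair 3 (adjusted p = 0.877), and -0.20 without pair 2 (adjusted p = 0.00069, or 0.278 unpaired). Trappc9, a subunit of a vesicle tethering complex, differed by 0.04 (SE 0.05). The remaining genes had values between -0.12 for Commd1, a gene known for copper handling, and 0.08 for Ddc, the decarboxylase that makes dopamine and serotonin. Zrsr1, a splicing factor copy inside Commd1 with which it shares 412 exon bases, was at -0.06, Grb10, an adaptor of insulin receptor signalling, at -0.06, and Plagl1, a zinc finger growth regulator, at -0.07. Impact, an inhibitor of a translation-arresting kinase, was at -0.09, Inpp5f, a phosphoinositide phosphatase, at -0.04, and Zdbf2 at 0.04.

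Grouped by allele, the 16 maternally expressed genes tested had 7 log2 fold changes above 0 and 9 below, with a median of -0.02. The 18 paternally expressed genes had 3 above 0, Sgce, Mest and Zdbf2, and 15 below, with a median of -0.09. The summed level of the maternal genes averaged 4241 CPM in the mutant-labelled and 4181 CPM in the wild-type libraries, and that of the paternal genes 2756 against 2898 CPM. Per library the paternal sum was 2906, 2531 and 2831 CPM against 3167, 2665 and 2862 CPM. The groups overlapped, and each mutant-labelled library was below the wild-type library of its number. Nnat alone made up 1399 to 1865 CPM of the paternal sum in a library. Meg3 and Rian, at 2109 and 928 CPM on average, made up most of the maternal sum, so these few genes dominate the sums. Grb10, Ddc and Gnas were listed as genes whose expressed allele depends on the tissue and were kept apart from both classes. The classes follow the allele that is usually expressed, and the allele used in these libraries was not measured. The medians and sums therefore describe the classes as listed, not expression from either allele.

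Ratios of neighbouring genes within a library do not depend on scaling between libraries, and 12 pairs were compared by exact permutation tests, in which the smallest p that 3 against 3 can give is 0.1. The groups did not overlap for 2 of the 12 pairs, and no share over other gene pairs was computed to set beside this. The log2 ratio of Airn to Igf2r was -6.26 ± 0.36 in the mutant-labelled and -5.70 ± 0.18 in the wild-type libraries (SD, n = 3, exact permutation p = 0.1, adjusted over 12 pairs 0.6). That of Peg13 to Trappc9 was 1.72 ± 0.01 against 1.86 ± 0.08 (SD, n = 3, exact permutation p = 0.1, adjusted 0.6). An exact sign-flip test within same-numbered libraries gave p = 0.25 for both ratios, the smallest that 3 pairs can give. Airn had only 12 to 26 counts in a library. For the other 10 pairs the groups overlapped. Nnat to Blcap differed by 0.00 and Usp29 to Peg3 by -0.01 on the log2 scale. Mirg to Meg3 differed by 0.41, with wild-type library 2 level with mutant-labelled library 2 at -6.72.

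Differences between library numbers were more frequent among imprinted genes than differences between genotypes. An F test over the numbers in the paired fit, chosen after seeing the data, called 16 of 37 (43.2%), against 18.2% of all genes. The labels do not say what the numbers stand for. Both libraries numbered 2 were the highest for Peg3, Zim1, Igf2r, Ppp1r9a and H13. Peg3 averaged 1.78 times the other 4 libraries there (adjusted p = 6.41e-05) and Zim1 1.73 times (adjusted p = 0.0176). Both were the lowest for Nnat, Rian, Gnas, Blcap and Cd81, at 0.814 times the other 4 libraries for Nnat and 0.848 times for Rian. The libraries numbered 1 were the highest for Dlk1, Asb4, Mest, Grb10 and Cd81, at 2.43 times the other 4 for Dlk1 (adjusted p = 0.000181) and 1.71 times for Asb4. They were also the highest libraries for the summed markers of choroid plexus, meninges, endothelium and pericytes, microglia, blood, and ganglionic eminence and striatum. This did not hold for the summed markers of neocortex, hypothalamus and catecholamine neurons. Some sums rested mostly on 1 gene. Alas2 held 1024 of the 1222 blood counts, and Nr4a2 held 12057 of the 13372 catecholamine neuron counts. Single markers did not all follow their sum. Kdr, Abcc9 and Cspg4 of endothelium and pericytes were highest in a library numbered 2, as were Gsx2, Ebf1 and Drd1a of ganglionic eminence and striatum. The part of any of these tissues in the levels of Dlk1, Asb4, Mest, Grb10 and Cd81 was not tested.

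**Figure D5:**
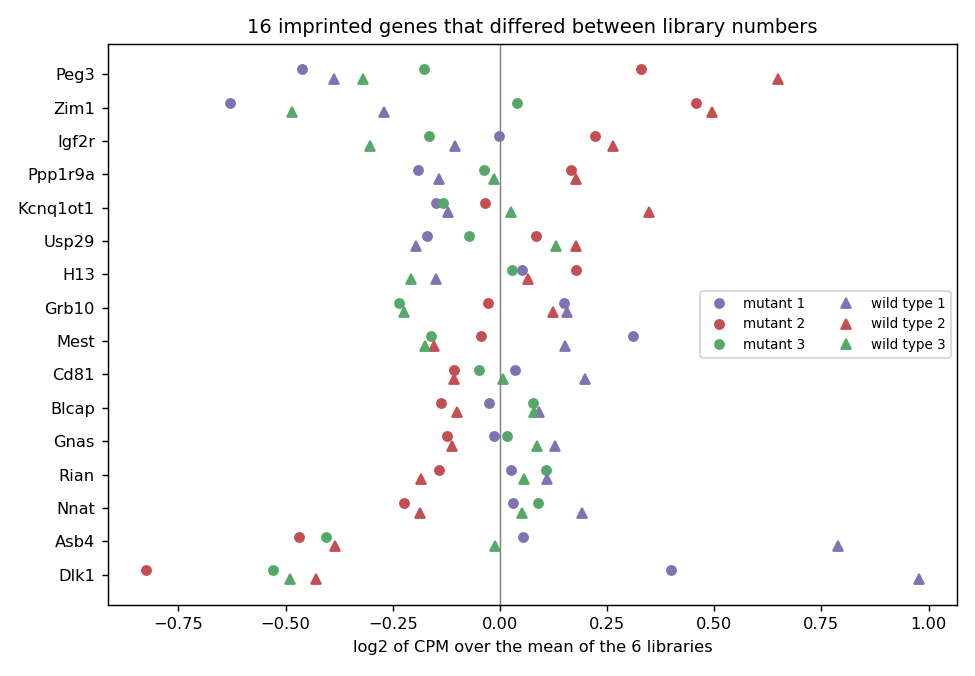
Log2 of CPM over the mean of the 6 libraries for the 16 imprinted genes that differed between library numbers, with mutant-labelled libraries as circles and wild type as triangles, coloured by number. The red symbols of number 2 lie to the right for Peg3, Zim1, Igf2r, Ppp1r9a and H13 and to the left for Nnat, Rian, Gnas, Blcap and Cd81.

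Exon length moved with library number. The 5 genes highest in both libraries numbered 2 had 8.09 to 14.5 kb of annotated exons. They were 5 of the 14 tested genes with at least 8 kb, and 0 of the 23 shorter ones had that pattern. No share over all genes of these lengths was computed to set beside this. Other long genes went the opposite way. Rian, Gnas and Inpp5f, with 18.2, 11.2 and 8.32 kb, were the lowest in both libraries numbered 2. Over all genes, long ones tended to be higher in the libraries numbered 2. The 2510 genes of at least 8 kb had a median log2 difference of 0.117 between mutant-labelled library 2 and the other 2 of its group, and of 0.187 for wild-type library 2. Genes of 1 to 2 kb had -0.06 and -0.09. The part of length, or of RNA quality, in the levels of Peg3, Zim1 and H13 was not tested.

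Among 39 other imprinted genes found in the table, such as Cdkn1c, a maternally expressed brake on the cell cycle, 30 were tested and 0 passed in either edgeR fit, with 12 log2 fold changes above 0 and 18 below and a median of -0.02. Library number called 5 of the 30, against 18.2% of all genes, and these were Trpm5, Dio3, Pon2, Kcnk9 and Htr2a, named here after their values were seen. Genes that set or keep imprints, such as Zfp57 and Trim28, which hold methylation at control regions, and the DNA methyltransferases Dnmt1 and Dnmt3a, gave 26 tested and 0 called in either fit, with 14 above 0, 12 below and a median of 0.02. Without pair 2 the paired fit called 6 of them, all higher in the mutant-labelled libraries, where 7.65% of all genes were called higher, and the unpaired fit of the same libraries called 0. Library number called 12 of the 26, against 18.2% of all genes. Dnmt3l and Dppa3, known from germ cells, had 0 counts in every library.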

How the data were processed

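RNA was sequenced from neocortex of 3 mutant-labelled and 3 wild-type pools with a stranded kit, per the labels. The authors deposited 1 table of raw read counts by gene symbol, unnormalized, and all its columns were used (0 left out). Per the submitters' processing notes, the build was mm10 and the tools included HTSeq 0.5.3p9, Bowtie2 2.1.0, TopHat2 2.0.9 and CASAVA 1.8.2. The role of each, the annotation and whether counting used strand were not given in the sources used here, so genes that share exon bases with another gene (15 of the 39, 11 of them on the opposite strand) have uncertain counts.

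The counts were tested in R 4.3.3 with edgeR 4.0.16 (quasi-likelihood test, TMM scaling, default expression filter, two-sided, Benjamini-Hochberg adjustment over 14618 genes, threshold 0.05), without and with library number as a block. DESeq2 1.42.0, RLE and upper-quartile scaling, no filter and leaving out libraries were alternatives. CPM used TMM-scaled totals, and SEs came from the F statistic. The fits were tested on simulated data. Deviations from group means correlated at 0.61, 0.51 and 0.47 between same-numbered libraries, above the bound of 0.1, and the numbers were therefore treated as pairs. This rests on the data, as the labels do not say what a number shares. Same-group libraries differed by more than sampling noise (chi-square per degree of freedom 7.13 to 23.1). Each pool drew on several litters, and p-values measure how pools vary. Fits without a pair rested on few libraries, so their p-values measure this poorly.

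Ratios used counts plus 0.5. Coordinates and exon lengths came from the GENCODE annotation of GRCm38, and promoter and microRNA sequences from RefSeq on GRCm38.p6, with 30 of 39 genes matched to a promoter. Exon length was matched for 93.9% of tested genes. The genes of the set and the lists were chosen with earlier results of these data known. Values in every library are given for genes that passed in either fit, had a log2 fold change of at least 0.3 in size or groups without overlap at 1 CPM or more, or were among the 5 highest per kb. Airn, Kcnq1ot1, Peg3, Zim1, Mir3072, Mir377, Rtl1 and Phlda2 were added after their values were seen.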

Additional observations from a re-analysis of the deposited data

How the results depend on the processing

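The number of genes called depended on the fit. Without the block, 11 of all genes were called. RLE scaling gave 11, upper-quartile scaling 17, no low-count filter 20, DESeq2 102 and the replicate block 506, and leaving out 1 library gave 3 to 35, with 35 without wild-type library 2. Imprinted genes of the set called stayed at 0 under each of these except the replicate block, with 1, H13, at 0.18 (adjusted p = 0.0223), and no other call among the named genes changed with it. Leaving out both libraries of a number was chosen after seeing the data. It left only 2 pairs, so the p-values of these fits measure poorly how pools vary. With the replicate block, 295, 1874 and 62 of all genes were called without pairs 1, 2 and 3, and 2, 3 and 0 without the block. Of the imprinted set, the paired fit called 1 without pair 1 (Kcnq1ot1, -0.27), 4 without pair 2 (Mirg 0.63, H13 0.22, Asb4 -0.59, Peg13 -0.20) and 0 without pair 3, and of the regulators 6 without pair 2. Without the block, leaving out any pair called 0 of the set and 0 regulators. The cause was not tested. Of 37 genes, 19 kept their sign under every alternative run on them and 18 did not. Rian turned to -0.00081 with upper-quartile scaling. On leaving out 1 library at a time the log2 fold changes of the 18 ranged as follows: H19 -0.95 to 0.0349, Igf2 -1.04 to 0.10, Igf2r -0.0659 to 0.23, Rian -0.0827 to 0.0675, Dlk1 -0.87 to 0.23, Cd81 -0.14 to 0.00879, Peg3 -0.38 to 0.29, Zim1 -0.24 to 0.40, Sgce -4.63e-05 to 0.11, Ppp1r9a -0.13 to 0.0638, Mest -0.0502 to 0.21, Grb10 -0.17 to 0.0365, Ddc -0.16 to 0.26, Nnat -0.15 to 0.0335, Blcap -0.11 to 0.000681, Nespas -0.74 to 0.0263, Zdbf2 -0.00745 to 0.12, Inpp5f -0.0869 to 0.00967. With 3 libraries a group, Airn, Ddc and Nespas, below 1 CPM, could show only large differences. The same held for Igf2, H19, Dlk1, Peg3, Zim1, Slc38a4 and Asb4 in the unpaired fit, as their spread was wide.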
